A study of Mus musculus with 20 samples.

Results

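The 47 genes described here are antiviral effectors and sensors that type I interferon induces in mouse cells. They were taken from the gene table as a list of symbols. The list was meant to leave out GBP and IRG GTPases, transcription factors and chemokines, but Ifi47, which it names, is an IRG GTPase. Each of the 47 had 1 row among the 17787 genes of the table, and all 47 were among the 12061 genes that passed the filter on low values. They were grouped by role: viperin and its neighbour (2 genes), the IFIT family (5), the ISG15 conjugation system (5), the OAS family (6), nucleic acid sensing (6), restriction factors (7), TRIM proteins (2), PARP9, PARP14 and DTX3L (3) and other induced genes (11).

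RNA was sequenced from bone marrow-derived macrophages of male wild-type C57BL/6J mice. The groups with Brg1 siRNA were vehicle (n = 3), LPS (n = 3) and Dex+LPS (n = 4), and those with control siRNA were vehicle (n = 3), LPS (n = 3) and Dex+LPS (n = 4). All 20 cultures received 50 nM of siRNA for 48 h in serum-free medium, with 1 siRNA product per arm. For the last 6 h they were given vehicle (ethanol and buffer), 100 ng/ml lipopolysaccharide (LPS, a bacterial cell wall component), or that LPS together with dexamethasone at 1 µM (Dex, a glucocorticoid drug). Smarca4 encodes Brg1, the motor subunit of BAF, a complex that uses ATP to move nucleosomes. Whether the replicates came from different mice is not stated in the labels. The p-values therefore cover the spread among the libraries at hand, which may be technical.

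As background, LPS sensed by Toll-like receptor 4 through the adaptor TRIF makes macrophages secrete interferon beta. The cytokine binds the receptor IFNAR on the same and neighbouring cells, and transcription factors activated through the receptor then bind interferon-stimulated response elements (ISREs) in the promoters of their target genes. The interferon regulatory factors IRF7, itself a target, and IRF1 bind related elements. Glucocorticoids are known to lower the output of this pathway in macrophages. The encoded proteins act on viral RNA, on translation, on membranes or on other proteins of the infected cell.

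Promoters of 4 members, 1 from each of the first 4 roles, chosen as the one with the highest mean count whose promoter held the letters searched, are shown because the element through which the pathway acts can be read in them. They run 5′ to 3′ in the direction of transcription, from 250 bases before to 50 bases after the RefSeq start site, in build GRCm38.p6. Capitals mark matches to GAAANNGAA, the letters searched for the ISRE on both strands, where overlapping matches were counted separately.
Rsad2, chr12:26456403-26456702, minus strand: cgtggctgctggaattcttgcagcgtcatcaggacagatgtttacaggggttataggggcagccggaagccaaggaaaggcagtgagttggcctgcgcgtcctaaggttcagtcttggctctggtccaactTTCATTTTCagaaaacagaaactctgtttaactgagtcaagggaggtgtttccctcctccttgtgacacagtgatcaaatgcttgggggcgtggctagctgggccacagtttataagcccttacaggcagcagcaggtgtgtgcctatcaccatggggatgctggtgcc
Ifit1, chr19:34640639-34640938, plus strand: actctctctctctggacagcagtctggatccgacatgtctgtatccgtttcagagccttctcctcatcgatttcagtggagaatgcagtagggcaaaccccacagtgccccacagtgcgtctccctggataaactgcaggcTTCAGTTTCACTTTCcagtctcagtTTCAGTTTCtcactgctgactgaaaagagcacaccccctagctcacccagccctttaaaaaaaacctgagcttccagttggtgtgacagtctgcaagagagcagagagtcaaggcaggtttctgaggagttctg
Isg15, chr4:156200769-156201068, minus strand: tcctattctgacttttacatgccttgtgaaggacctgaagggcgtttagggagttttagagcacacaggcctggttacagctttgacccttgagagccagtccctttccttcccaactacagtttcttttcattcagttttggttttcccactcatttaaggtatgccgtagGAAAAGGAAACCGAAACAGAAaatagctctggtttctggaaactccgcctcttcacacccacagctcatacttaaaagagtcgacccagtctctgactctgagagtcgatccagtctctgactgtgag
Oas3, chr5:120777610-120777909, minus strand: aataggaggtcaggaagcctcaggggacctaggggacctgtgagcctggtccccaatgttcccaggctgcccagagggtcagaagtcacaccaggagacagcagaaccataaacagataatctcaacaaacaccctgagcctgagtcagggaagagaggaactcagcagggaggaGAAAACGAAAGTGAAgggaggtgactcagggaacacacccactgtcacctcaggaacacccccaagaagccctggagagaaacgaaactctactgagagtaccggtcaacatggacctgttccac

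The Rsad2 promoter held 1 match, at -119 from the start site. That of Ifit1 held 3, between -109 and -84, that of Isg15 3, between -78 and -66, and that of Oas3 2, at -75 and -69. RefSeq promoters were matched for 36 of the 47 members, and 21 of the 36 (58.3%) held at least 1 match. Of the 27025 genes with a promoter of the same length, 9.76% did. At least 2 matches in a single promoter were present in 14 of the 36 members, against 0.736% of all genes. RefSeq gives 46 promoters for the 36 members, and those of 1 gene can overlap, so that a site can be counted more than once. Counted that way, 43 matches lay between -249 and 38, with a median of -75 and 28 of them in the 150 bases before the start site. The letters searched for the gamma-activated site, TTCNNNGAA, which can overlap an ISRE match, were present in 7 of the 36 (19.4%), against 9.55% of all genes. The 7 were Adar, Bst2, Eif2ak2, Ifi35, Ifit2, Isg20 and Oas1a. A match is a description of the letters, not a bound site.

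Several members lie next to each other. The 5 IFIT genes span 99.3 kb of chromosome 19 (34550694 to 34650009), 4 OAS genes span 177 kb of chromosome 5 (120730333 to 120907521) and Oasl1 and Oasl2 lie together elsewhere on chromosome 5 (114896936 to 114937915). Rsad2 (ENSMUSG00000020641, chromosome 12, 26442746 to 26456452, minus strand) and Cmpk2 (ENSMUSG00000020638, chromosome 12, 26469204 to 26479837, plus strand) are transcribed away from each other, with start sites 12752 bases apart. Neighbours and family members are not independent observations. Shared sequence limits some of them: 31-base words present in another gene made up 68.8% of the words of Oas1a and 55% of Oas1g, which share them with each other, and 61.8% of Ifit3 and 55.3% of Ifit3b, which likewise share them. Counts of these 4 are therefore uncertain as single genes. The shares were 34.5% for Ifi204, 27.3% for Slfn8 and 19.3% for Ifit1bl1. Exons of 16 members overlap another gene, among them Parp9 and Dtx3l, which overlap each other, and the strand used in counting is not given in the sources used here.

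Reads recovered from the deposited counts summed to 13.69 to 18.71 M per library over the 17787 genes, which is not the sequencing depth. Smarca4, the siRNA's target, had 365, 358 and 340.2 normalized counts (reads divided by the library's size factor) with Brg1 siRNA in vehicle, against 1476, 1538 and 1626 with control siRNA, and its log2 fold change was -2.12, -2.28 and -2.10 in vehicle, LPS and Dex+LPS. The 8 macrophage markers were detected in every library, from a lowest value of 325 (Mertk, control siRNA in LPS) up to Lyz2 at 118779 to 235446. Their summed counts were higher in every library with Brg1 siRNA, at 399466 to 408917 in vehicle, 453459 to 466312 in LPS and 383122 to 404359 in Dex+LPS, against 300503 to 310553, 281858 to 304510 and 294089 to 321478 with control siRNA. Lyz2 and Mpeg1 make up most of these sums. Of the 8 markers, 4 were called higher and 1 lower with Brg1 siRNA in vehicle, 6 and 1 in LPS and 5 and 2 in Dex+LPS. The lower ones were Csf1r in vehicle (-0.24), Itgam in LPS (-0.52) and both in Dex+LPS (-0.16 and -0.24). Their part in the results below was not tested. Of plasmacytoid dendritic cell markers, Siglech and Ly6d stayed at 0 to 1.7 and 0 to 1.2, while Tcf4 ranged from 207 to 1249. Ccr9 averaged 0.27, 56.8 and 36.5 in vehicle, LPS and Dex+LPS with Brg1 siRNA, and 2.58, 81.8 and 60.7 with control siRNA. Of neutrophil markers, Ly6g, Elane and Mpo were at or near 0. S100a8 ranged from 19.2 to 459, S100a9 from 25.9 to 98.3 and Ngp from 17.6 to 67.3. Of the 3 neutrophil markers tested, 3 were called higher in LPS than in vehicle with control siRNA and 2 with Brg1 siRNA. Between the siRNAs 1 was called, higher in Dex+LPS. Markers of B cells, T and NK cells and fibroblasts reached at most 23.4 normalized counts per gene. In bulk RNA, fewer cells of a type and less RNA per cell cannot be told apart.

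**Figure D1:**
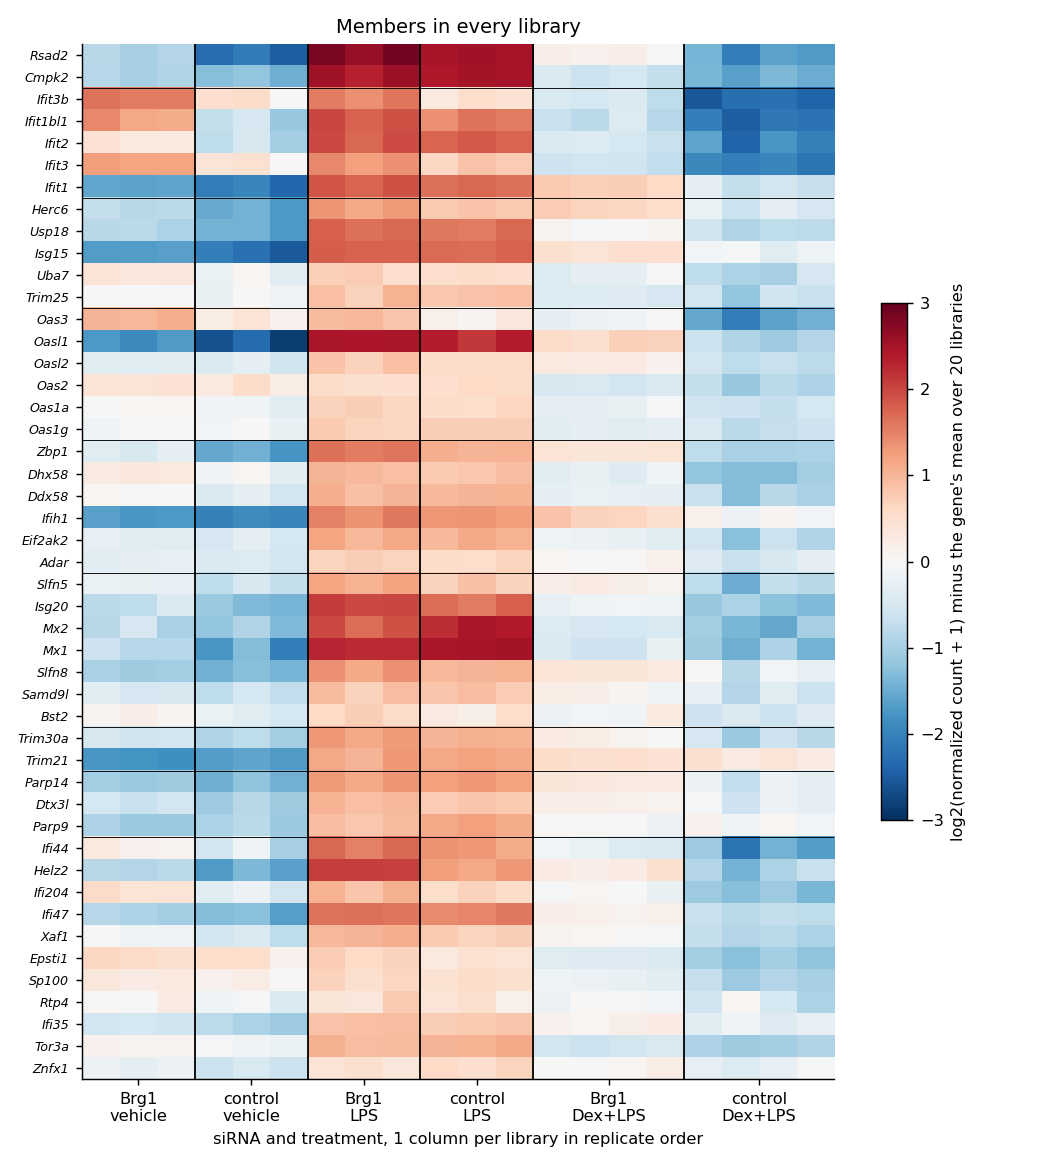
The 47 genes (rows, by role) in all 20 libraries (columns, by siRNA and treatment), coloured by log2(normalized count + 1) minus the gene's mean over the libraries. Most rows are red in the LPS columns, and the Brg1 siRNA columns are redder than the control siRNA columns beside them in vehicle and in Dex+LPS.

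Without stimulation, the antiviral genes as a group were more abundant in macrophages with Brg1 siRNA. Of 47 members, 31 were called higher and 0 lower (limma, adjusted p under 0.05 over all genes), where 9.28% of all tested genes were higher and 10.6% lower. edgeR called 31 and 0, DESeq2 33 and 0, and at an unadjusted p under 0.05 limma gave 37 and 0. The median log2 fold change of the members was 0.40, against 0.01 over all genes. In 38 members every library with Brg1 siRNA lay above every library with control siRNA, as it did in 22.9% of all genes.

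Rsad2, whose product viperin makes a chain-terminating nucleotide that stalls viral polymerases, had 4666, 4161 and 4505 normalized counts with Brg1 siRNA, against 1704, 1937 and 1474 with control siRNA. The groups lay far apart (log2 fold change 1.39, SE 0.13, limma adjusted p = 2.43e-07). Cmpk2, which supplies viperin's nucleotide substrate, was 1426 ± 74.8 and 1094 ± 106 (SD, n = 3 each), a rise of 0.39 on the log2 scale.

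All 5 IFIT genes rose, with a median log2 fold change of 1.10. They encode tetratricopeptide repeat proteins that bind viral RNA lacking the host cap methylation. Ifit1bl1, a family member whose own function is little known, showed the largest change of the 47, with 256, 209.6 and 203 with Brg1 siRNA, against 56.1, 65.5 and 41.9 with control siRNA (log2 fold change 2.03, SE 0.17, limma adjusted p = 6.98e-08). Ifit3b had 1817, 1710.1 and 1711, against 832, 854 and 587 (log2 fold change 1.22, SE 0.13, limma adjusted p = 1.06e-06). Ifit1, the member that recognises the cap, had 2776, 2717 and 2738, against 1955, 2116 and 1609. In each of these 3 genes control siRNA replicate 3 was the lowest library.

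In the ISG15 system 4 of 5 rose. Isg15, a ubiquitin-like modifier, had 1271, 1284 and 1313 with Brg1 siRNA, against 984, 863 and 710.4 with control siRNA (log2 fold change 0.61, SE 0.092, limma adjusted p = 8.1e-05). Its activating enzyme Uba7 rose by 0.52, the ligase gene Herc6 by 0.77 and the deconjugating protease and receptor inhibitor Usp18 by 0.66. Trim25, a ligase that also acts on RIG-I, was not called (log2 fold change 0.09).

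The OAS family divided. Its enzymes make the 2′-5′ oligoadenylate that activates RNase L, while the OAS-like proteins have other roles. Oas3 (0.78), Oasl1 (0.81) and Oas1a (0.24) rose. Oasl2 had 7022, 6959.9 and 7007 with Brg1 siRNA, against 6491, 7121 and 5766 with control siRNA. Those groups overlap, and the gene was not called (log2 fold change 0.12, SE 0.077, limma adjusted p = 0.314). Oas1g (0.08) and Oas2 (0.06) were not called either.

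Of the sensors, Zbp1, which binds Z-form nucleic acid, rose most: 1824, 1683 and 1903 with Brg1 siRNA, against 806, 852 and 682 with control siRNA (log2 fold change 1.21, SE 0.078, limma adjusted p = 2.47e-09). Ddx58 (RIG-I) rose by 0.44 and the regulator Dhx58 (LGP2) by 0.40. Ifih1 (MDA5), with 1528, 1425 and 1435 against 1173, 1293 and 1215, was not called (log2 fold change 0.25, limma adjusted p = 0.0581), although its groups do not overlap. The kinase gene Eif2ak2 (PKR) and the editing enzyme gene Adar were not called, at 0.12 and 0.19.

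Of 7 restriction factors, 4 rose. Mx1, a GTPase against influenza viruses that is defective in C57BL/6 mice, had 839, 719 and 719.6 with Brg1 siRNA, against 386, 526 and 311 with control siRNA (log2 fold change 0.93). Slfn5 had 12696, 12455 and 12211 with Brg1 siRNA, against 8655, 10430.0 and 8871 with control siRNA (log2 fold change 0.42, SE 0.14, limma adjusted p = 0.0413, a call that ended in 12 of 29 alternatives). Bst2 (tetherin, which holds budding virions) and the exonuclease gene Isg20 rose by 0.49 and 0.60. Mx2, Samd9l and Slfn8 were not called. Trim30a rose, with 5028, 4588 and 4742 against 3752, 4110.0 and 3411 (log2 fold change 0.35, a call that ended in 6 of 29 alternatives). The antibody receptor Trim21 was not called, at -0.13.

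Dtx3l, a ubiquitin ligase, rose by 0.40. Its partner Parp9 (-0.09) and the ADP-ribosyltransferase gene Parp14 were not called. Parp14 had 8517, 8147 and 8440.3 with Brg1 siRNA, against 6439.7, 7632 and 6527 with control siRNA, without overlap between the groups (log2 fold change 0.29, SE 0.11, limma adjusted p = 0.0712). Of the other 11 genes 8 rose, led by the DNA-sensing family member Ifi204 (0.83), Ifi44 (0.74) and the helicase gene Helz2 (0.73). Znfx1, a mitochondrial RNA helicase, had 7338, 6844 and 7300.3, against 5314, 5970.3 and 5304. Rtp4, Sp100 and Epsti1 were not called.

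The libraries of a group ranked alike across members. With control siRNA in vehicle, replicate 2 was the highest library in 41 of 47 members and replicate 3 the lowest in 39. Without replicate 3 the members called higher were 26, and over all single libraries left out they were 26 to 35.

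**Figure D2:**
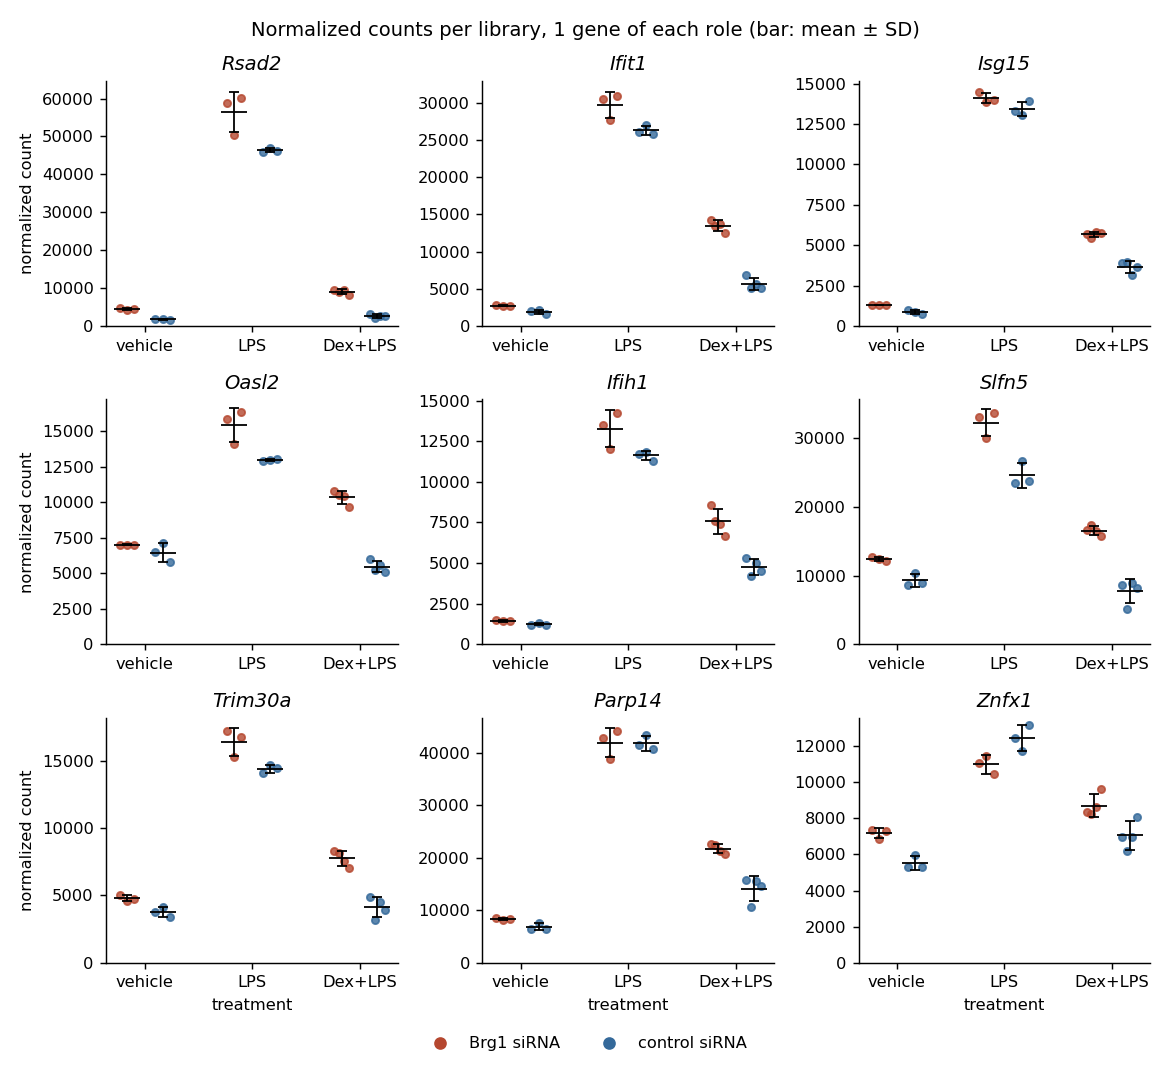
Normalized counts in each library for the member with the highest mean count of each role, by treatment, with Brg1 siRNA left of control siRNA and bars for mean ± SD (n = 3, and 4 in Dex+LPS). In Dex+LPS every library with Brg1 siRNA lies above every library with control siRNA in all 9 genes, and in LPS the groups overlap in Isg15 and Parp14.

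With LPS for 6 h most of the antiviral genes rose with both siRNAs. With Brg1 siRNA 41 members were called higher and 0 lower (35.5% and 37.4% of all genes), with control siRNA 43 and 0 (35.9% and 37.0%). edgeR called 40 and 0 with Brg1 siRNA and 43 and 0 with control siRNA, DESeq2 42 and 0 and 43 and 0, and unadjusted counts were 42 and 0 and 44 and 0. The median log2 fold change was 1.43 with Brg1 siRNA and 1.72 with control siRNA, against -0.05 and -0.04 over all genes.

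The largest rises were those of Oasl1, which restrains translation of Irf7, with 9311, 9088 and 9310.1 in LPS against 517, 449.6 and 519 in vehicle with Brg1 siRNA (log2 fold change 4.22, SE 0.12, limma adjusted p = 1.85e-16). With control siRNA Oasl1 had 8698, 7452 and 8731 in LPS, against 278, 343 and 234 in vehicle (log2 fold change 4.87, SE 0.12, limma adjusted p = 2.11e-17). Rsad2 rose by 3.66 with Brg1 siRNA and by 4.77 with control siRNA, Isg15 by 3.45 and 3.99, and Mx1 by 3.02 and 4.17. Oasl1, Cmpk2 (rises of 3.40 and 3.77) and Ifit2 (1.54 and 2.54) are among the 15 members with no ISRE letters in the promoter searched.

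A few members did not pass the test. Ifit3b, Oas2, Oas3 and Epsti1 were not called with either siRNA. Oas3 had 6632, 6825 and 6079.8 in LPS against 6916, 6803 and 7323 in vehicle with Brg1 siRNA, and 3811, 3630.4 and 4298 against 3972, 4525 and 3765 with control siRNA. Ifit3 and Rtp4 were called with control siRNA (log2 fold change 0.47 and 0.55) and not with Brg1 siRNA (0.14 and 0.41). The small changes depended on the scaling. With reads scaled by library totals in place of the deposited size factors, the median of all genes was -0.72 with Brg1 siRNA and -0.61 with control siRNA. There, 31 members were higher and 7 lower with Brg1 siRNA (the lower ones Ifit3, Ifit3b, Oas2, Oas3, Sp100, Epsti1 and Uba7), and of all genes 2211 and 7315, against 4276 and 4505 as reported. With control siRNA 38 were higher and 5 lower (2424 and 6840, against 4328 and 4463).

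Between the siRNAs in LPS, 15 of the antiviral genes passed the test. With Brg1 siRNA 13 were called higher and 2 lower than with control siRNA, where 17.3% and 15.7% of all genes were. edgeR called 12 and 2, DESeq2 14 and 2, and unadjusted counts were 15 and 3. The median log2 fold change was 0.15, against 0.01 over all genes, and in 24 members every library with Brg1 siRNA lay above every library with control siRNA, as in 24.1% of all genes.

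The 13 were Zbp1, Ifit3, Ifit3b, Isg20, Oas3, Oasl2, Herc6, Bst2, Xaf1, Ifi204, Epsti1, Slfn5 and Helz2. Ifit3b had 1732, 1522 and 1767 with Brg1 siRNA, against 713, 843 and 790.4 with control siRNA (log2 fold change 1.10, SE 0.13, limma adjusted p = 2.16e-06). Helz2, a helicase and nuclear coactivator, had 15337, 15272 and 14912, against 8593, 8094 and 8952 (log2 fold change 0.83, SE 0.13, limma adjusted p = 7.5e-05). Oas3 rose by 0.74 (SE 0.12, limma adjusted p = 0.00014) and Zbp1 by 0.55, likewise without overlap.

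The 2 lower members were Mx2, a relative of Mx1, and Parp9. Mx2 had 1814, 1467 and 1729, against 2124, 2499 and 2370.2 (log2 fold change -0.48, SE 0.15, limma adjusted p = 0.0151). Parp9 had 7105, 6489 and 7136, against 8202, 8669 and 7986 (log2 fold change -0.26, SE 0.086, limma adjusted p = 0.0239).

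Most of the strongly induced members did not pass the test in LPS. Rsad2 had 58762, 50488 and 60029.7 with Brg1 siRNA, against 45919, 47005 and 46163 with control siRNA (log2 fold change 0.28, SE 0.13, limma adjusted p = 0.102). Ifit1 had 30479, 27675 and 30900.3, against 26120.3, 27021 and 25785 (log2 fold change 0.17, SE 0.10, limma adjusted p = 0.207). The groups of neither gene overlap, and neither was called. Isg15 had 14466, 13832 and 14008, against 13316, 13045 and 13905, and Parp14 had 42819.7, 38874 and 44251, against 41509, 43397 and 40690.0, with overlap in both. Ifih1 had 13519, 12018 and 14254, against 11716, 11864 and 11305, Trim30a 17218, 15230.5 and 16778, against 14066, 14662 and 14478, and Znfx1 11045, 11471 and 10425, against 12443, 11703 and 13146, and none of the 3 was called. Slfn5 had 33156, 30097 and 33634, against 23459, 26652 and 23727 (log2 fold change 0.39, SE 0.14, limma adjusted p = 0.04), a call that ended in 8 of 29 alternatives.

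These counts rest on few libraries. With Brg1 siRNA in LPS, replicate 2 was the lowest library in 35 of 47 members. It is the only library of its group whose description label carries the higher of 2 number series. The series and the spread among replicates cannot be told apart in it. Without Brg1 siRNA LPS replicate 1 the higher members were 8 in place of 13. The lower ones were 0 without Brg1 siRNA LPS replicate 2, 0 without control siRNA LPS replicate 2 and 1 without control siRNA LPS replicate 1. With library totals, which move the median of all genes to -0.12 in this comparison, 7 members were higher (Zbp1, Ifit3, Ifit3b, Oas3, Herc6, Ifi204 and Helz2) and 4 lower (Mx2, Parp9, Tor3a and Znfx1). All genes then divided into 1333 higher and 2913 lower, against 2084 and 1896 as reported. The members' median was then 0.01, and 14 members changed sign, none of them called as reported: Cmpk2, Ifit2, Isg15, Oas1a, Dhx58, Usp18, Trim25, Parp14, Ifi35, Ifi47, Samd9l, Sp100, Eif2ak2 and Adar.

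**Figure D3:**
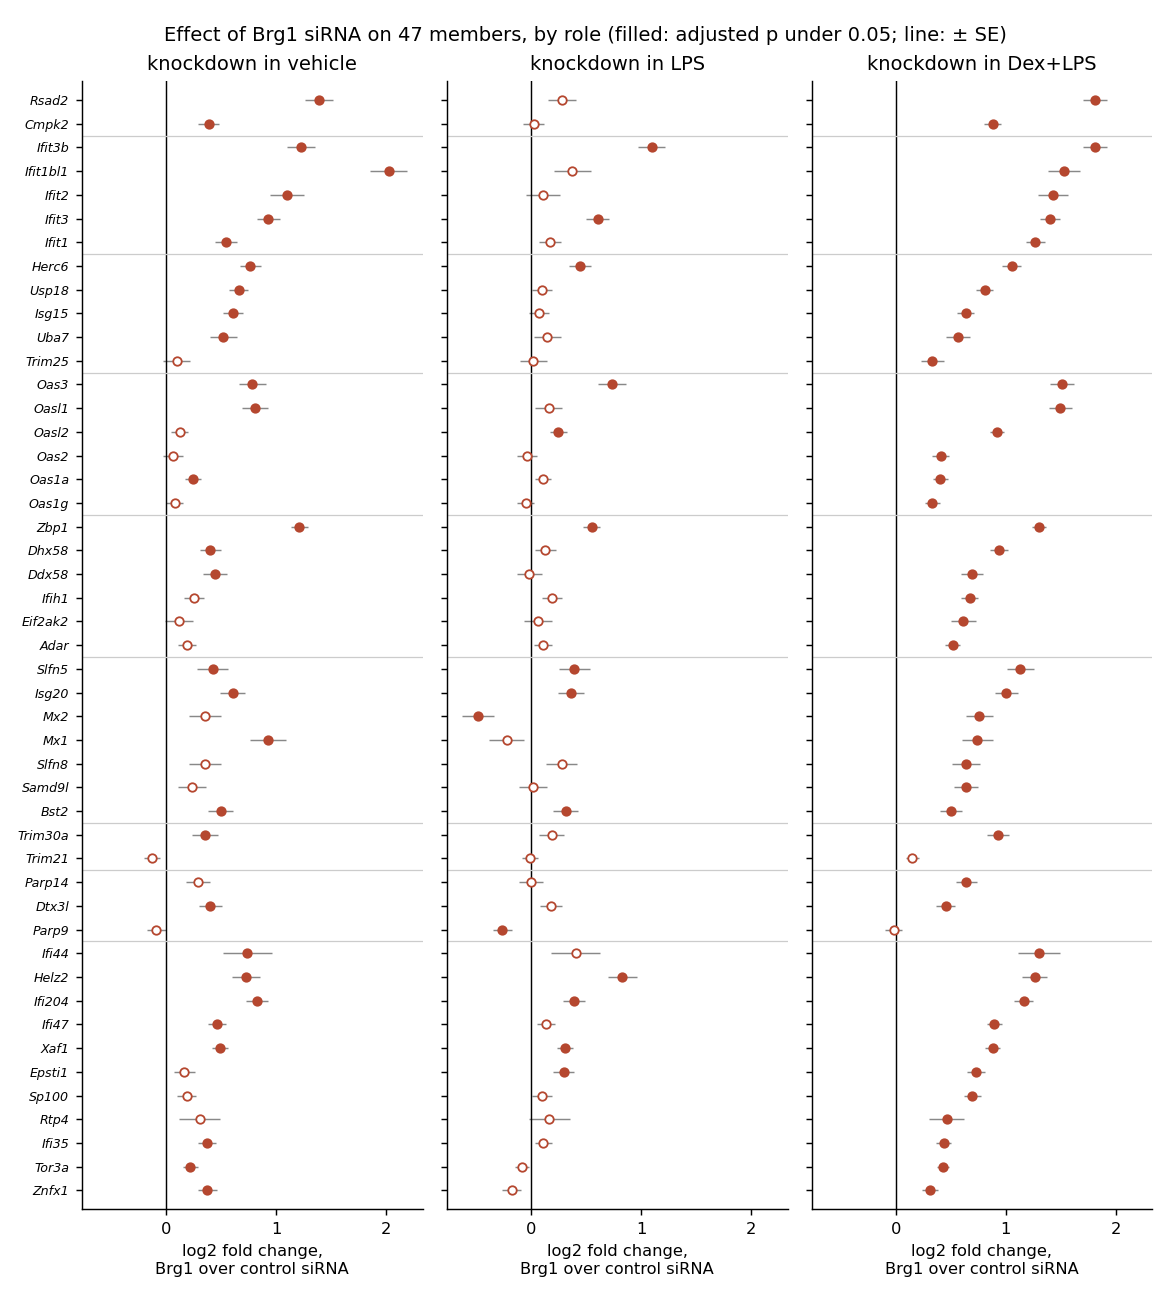
Log2 fold change of Brg1 over control siRNA for the 47 members (rows, by role) in vehicle, LPS and Dex+LPS. Filled points passed an adjusted p under 0.05 in limma, open points did not, and lines show ± SE. Filled points right of 0 number 31 in vehicle, 13 in LPS and 45 in Dex+LPS, and 27, 7 and 42 with library totals.

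The response to LPS itself differed between the siRNAs for 11 members, all with a smaller rise with Brg1 siRNA. The interaction was called lower in 11 and higher in 0 of 47 (4.95% and 6.34% of all genes). edgeR called 11 and 0, DESeq2 14 and 0, and unadjusted counts were 20 and 0. The median interaction was -0.24, against 0.02 over all genes. The 11 were Rsad2, Zbp1, Ifit2, Ifit1bl1, Isg15, Mx1, Mx2, Oasl1, Usp18, Tor3a and Znfx1. Ifit1bl1 rose by 0.65 with Brg1 siRNA and by 2.30 with control siRNA, a difference of -1.65 (SE 0.24, limma adjusted p = 0.000117). The difference was -1.15 for Mx1 (SE 0.23, limma adjusted p = 0.00218) and -1.11 for Rsad2 (SE 0.18, limma adjusted p = 0.000368). With library totals 17 members were lower and 0 higher (560 higher and 911 lower of all genes, against 765 and 597). When the 4 libraries whose description labels carry the higher number series were left out, 7 members were lower.

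All 47 transcripts were lower with dexamethasone and LPS than with LPS alone, with either siRNA. Of all genes 23.0% were lower and 21.4% higher in Dex+LPS than in LPS with Brg1 siRNA, and 25.1% and 23.4% with control siRNA. All members were lower and 0 higher by limma, edgeR and DESeq2 alike. The median log2 fold change was -1.08 with Brg1 siRNA and -1.80 with control siRNA, against -0.02 and -0.01 over all genes.

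The part of the LPS level that remained was larger with Brg1 siRNA in all 47. It ran from 11.9% in Cmpk2 to 79.3% in Znfx1 with Brg1 siRNA (median 47.3%), and from 5.59% in Rsad2 to 57.3% in Rtp4 with control siRNA (median 28.7%). It was below 50% in 27 members with Brg1 siRNA and in 43 with control siRNA. These percents rest on the deposited size factors, and the matching shares of all genes were not computed. With library totals the members' median log2 fold change was -0.75 with Brg1 siRNA and -1.50 with control siRNA. The medians of all genes were then 0.31 and 0.28. Cmpk2 fell most with Brg1 siRNA and Rsad2 most with control siRNA. Cmpk2 fell by 3.06 on the log2 scale with Brg1 siRNA and by 3.92 with control siRNA. The log2 fold change was -2.64 with Brg1 siRNA and -4.18 with control siRNA for Rsad2, -2.58 and -3.74 for Ifit1bl1, and -2.73 and -3.69 for Mx1. With Brg1 siRNA, Cmpk2 had 2001, 1712, 1870.0 and 1644 in Dex+LPS, against 15643, 13507 and 16231 in LPS. With control siRNA it had 1045, 867, 1054 and 963 in Dex+LPS, against 14303, 15220.3 and 15058 in LPS. In both pairs the libraries lie far apart. Mx1 had 961, 837, 839.9 and 1105 in Dex+LPS, against 6271, 6056 and 6131 in LPS with Brg1 siRNA, and 622, 468, 681 and 481 against 7037, 7160.1 and 7338 with control siRNA. Ifit1bl1 had 375, 318 and 353 in LPS with Brg1 siRNA and 242, 289 and 275 with control siRNA, and those groups do not overlap. Oasl1 had 2519, 2378, 2806 and 2739 in Dex+LPS with Brg1 siRNA, against 1093, 904, 802 and 918 with control siRNA. Ifit2, an IFIT protein that binds AU-rich RNA, had 6091, 6195, 5702 and 5196, against 2758, 1559, 2439 and 2019. Trim21, which kept 63.1% with Brg1 siRNA and 56.7% with control siRNA, had the smallest interaction estimate of the 47 (0.16, not called). With library totals 45 members were lower with Brg1 siRNA and 47 with control siRNA, while all genes divided into 5387 higher and 1229 lower (2582 and 2774 as reported) and 5268 and 1642 (2822 and 3029). The 2 calls that ended were Rtp4 and Znfx1.

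**Figure D4:**
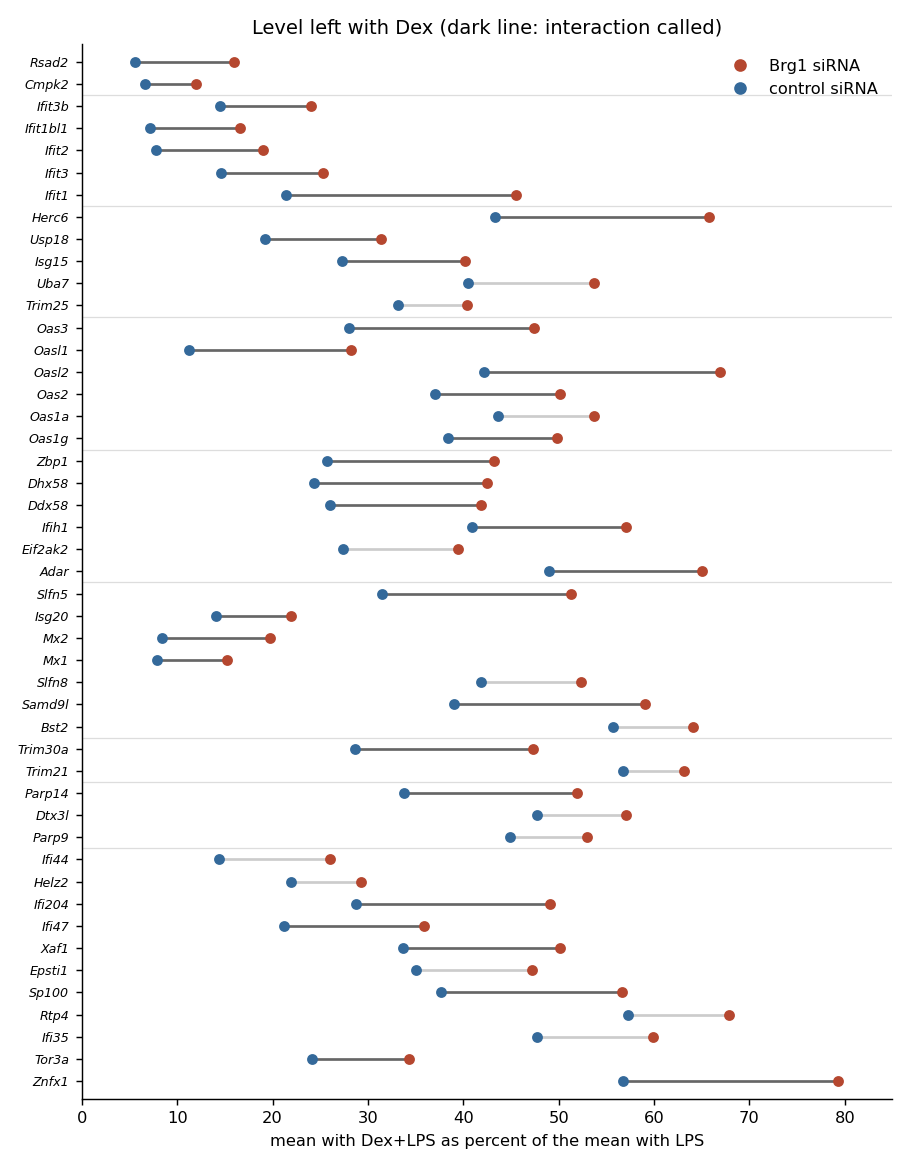
Mean normalized count in Dex+LPS as a percent of the mean in LPS for each of the 47 members, with Brg1 siRNA (red) and control siRNA (blue). The red point lies right of the blue point in all 47, a direction that the interaction estimates keep with library totals, and dark lines mark the 33 members whose interaction was called.

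The test of that difference, the interaction of the siRNA with Dex, was called higher in 33 of 47 members and lower in 0, where 2.72% and 1.15% of all genes were. edgeR called 30 and 0, DESeq2 38 and 0, and unadjusted counts were 41 and 0. The estimate was above 0 in all 47, with a median of 0.62 against 0.01 over all genes. Both genes of the viperin pair and all 5 IFIT genes were called, as were 3 of 5 in the ISG15 system, 5 of 6 in the OAS family, 5 of 6 sensors and 5 of 7 restriction factors. Of the rest, 1 of 2 TRIM genes, 1 of 3 in the PARP group and 6 of 11 others were called. The largest were Rsad2 (1.53, SE 0.17, limma adjusted p = 2.85e-05), Oasl1 (1.34, SE 0.16, limma adjusted p = 6.26e-05) and Ifit2 (1.32, SE 0.21, limma adjusted p = 0.000968). This interaction and that of the siRNA with LPS use the same LPS libraries, with opposite signs, so they are not independent.

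The count of these calls moved when libraries were left out. When the 4 libraries with the higher numbers were left out, 1 in each of the 4 LPS and Dex+LPS groups, 18 members were called. With the number series as a covariate and all libraries kept, 35 were called and none of the 33 calls ended. The series and the smaller groups cannot be told apart in the count of 18. Each of these libraries stands alone in its group, so they allow no test of their own. Among the 4, the part of the LPS level that remained was larger with Brg1 siRNA in 47 of 47 members, and among the others also in 47. Members higher with Brg1 siRNA in LPS were 29 among the 4 and 40 among the others. Members move together within a library, so these counts are not replication, and the share over all genes was not computed. Calls of Oas1g, Samd9l and Oas2 ended in 22, 21 and 19 of 29 alternatives, and 17 of the 33 members were called in every alternative.

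Members called between the siRNAs were most numerous in Dex+LPS. With Brg1 siRNA 45 members were higher and 0 lower than with control siRNA, where 18.9% and 15.1% of all genes were. edgeR called 44 and 0, DESeq2 45 and 0, and unadjusted counts were 46 and 0. The median log2 fold change was 0.74, against 0.01 over all genes, and in 44 members every library with Brg1 siRNA lay above every library with control siRNA, as in 16.1% of all genes. With library totals 42 members were higher and 0 lower, while all genes divided into 1642 higher and 2826 lower, against 2274 and 1827 as reported.

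Rsad2 had 9494, 9053, 9501 and 8044 with Brg1 siRNA, against 3137, 1972, 2706 and 2559 with control siRNA (log2 fold change 1.81, SE 0.11, limma adjusted p = 4.54e-10). Cmpk2 was 1807 ± 160.3 and 982 ± 87.2 (SD, n = 4 each). All 5 IFIT genes were higher, with a median of 1.43. Ifit3b had 426, 406, 431 and 346, against 99.7, 122, 123 and 110.2 (log2 fold change 1.81, SE 0.11, limma adjusted p = 4.32e-10). Ifit1bl1 had 58.3, 52.4, 69.5 and 50.8, against 21.7, 16.0, 20.3 and 19.1 (log2 fold change 1.53, SE 0.15, limma adjusted p = 1.5e-07). In none of the 3 did the groups overlap. Ifit1 had 14298, 13486, 13750.4 and 12467, against 6791, 5049.6, 5615 and 5068.

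The ISG15 system was higher in all 5, Isg15 with 5687, 5414, 5796 and 5769, against 3870.1, 3955, 3162 and 3654. All 6 OAS genes were higher, from Oas1g at 0.33 to Oas3 at 1.51. Oasl2, not called in vehicle, had 10769.8, 10496, 10430.4 and 9634, against 6015, 5213, 5565 and 5091 (log2 fold change 0.92, SE 0.066, limma adjusted p = 4.09e-09). All 6 sensors were higher, Zbp1 by 1.30 and Ifih1 with 8555, 7607, 7426 and 6664, against 5299, 4176, 5017 and 4518 (log2 fold change 0.67). All 7 restriction factors were higher. Slfn5 had 16639, 17400.2, 16531 and 15749, against 8658, 5173, 8932 and 8178, where replicate 2 lay below the other control libraries.

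Trim30a had 8308, 8122, 7538 and 7060.1 with Brg1 siRNA, against 4910.3, 3199, 4504 and 3891 with control siRNA, and Parp14 had 22671, 22395, 21225 and 20817, against 15749, 10595, 15615 and 14649. Znfx1 had 8328, 8247, 8599 and 9640.0, against 6979, 6186, 6943 and 8089, and all 11 of the last role were higher. Only Trim21 and Parp9 were not called of the 47. Trim21 had 3393, 3233, 3275 and 3106, against 3229, 2756, 3009.6 and 2748, and Parp9 had 3822, 3809.6, 3692 and 3312, against 4067, 3407, 3889.7 and 3517, with overlap in both. With control siRNA in Dex+LPS replicate 2 was the lowest library in 31 members and replicate 1 the highest in 28. Leaving out single libraries gave 43 to 45 members called higher.

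Across the 3 treatments, which share no libraries, 11 members were higher with Brg1 siRNA in each: Zbp1, Ifit3, Ifit3b, Isg20, Oas3, Herc6, Bst2, Xaf1, Ifi204, Slfn5 and Helz2. All 31 members called higher in vehicle were also among the 45 in Dex+LPS. A further 12 were called higher in Dex+LPS and in neither other treatment, where Mx2 was called lower in LPS: Mx2, Oas1g, Oas2, Ifih1, Rtp4, Trim25, Parp14, Samd9l, Sp100, Eif2ak2, Slfn8 and Adar. Shares of all genes with these combinations of calls were not computed, so the overlap cannot be called particular to the members. The difference of the effect between Dex+LPS and vehicle was tested as well. It was called higher in 15 members and lower in 0 (6.02% and 2.65% of all genes), with 15 and 0 by edgeR, 19 and 0 by DESeq2 and 29 and 1 unadjusted. The 3 largest were Oasl2 (0.80, SE 0.10, limma adjusted p = 3.41e-05), Oas3 (0.73, SE 0.16, limma adjusted p = 0.00735) and Ifit1 (0.73, SE 0.13, limma adjusted p = 0.00147). Of the 12 genes named before these, the difference was called for Ifih1 and Sp100. The count was 7 without control siRNA vehicle replicate 2 and 9 without Brg1 siRNA vehicle replicate 3, and 12 with library totals (557 higher and 424 lower of all genes, against 726 and 320).

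Set against vehicle, antiviral genes were called in both directions in Dex+LPS, and the share lower with Brg1 siRNA was that of all genes. With Brg1 siRNA 24 members were higher and 16 lower in Dex+LPS than in vehicle, 51.1% and 34.0% of them, against 33.3% and 34.0% of all genes. With control siRNA 18 were higher and 20 lower, 38.3% and 42.6%, against 32.5% and 33.2% of all genes. With both siRNAs 16 members were lower: Ifit2, Ifit3, Ifit3b, Ifit1bl1, Oas1a, Oas1g, Oas2, Oas3, Ddx58, Dhx58, Trim25, Ifi204, Sp100, Tor3a, Epsti1 and Uba7. With both, 17 were higher: Rsad2, Zbp1, Ifit1, Isg15, Oasl1, Ifih1, Usp18, Herc6, Trim21, Parp9, Parp14, Dtx3l, Ifi35, Ifi47, Slfn8, Helz2 and Znfx1. Within the IFIT family, Ifit1 was thus higher (log2 fold change 2.30 with Brg1 siRNA) and the other 4 lower, as Ifit3b (-2.12 with Brg1 siRNA and -2.71 with control siRNA). The share of all genes called in the same direction with both siRNAs was not computed.

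The other large rises over vehicle were Oasl1 (2.40) and Ifih1 (2.37) with Brg1 siRNA, and Isg15 (2.11), Trim21 (2.01) and Ifih1 (1.95) with control siRNA. Oasl2 was called higher with Brg1 siRNA (0.56, limma adjusted p = 1.15e-06) and lower with control siRNA (-0.24, limma adjusted p = 0.00697), a call that ended in 2 of 29 alternatives. Cmpk2, Isg20, Trim30a, Samd9l, Slfn5 and Adar were called higher with Brg1 siRNA and not called with control siRNA. With library totals the members divided into 18 higher and 20 lower with Brg1 siRNA (2658 and 6007 of all genes, against 4022 and 4103) and 16 and 26 with control siRNA (2710 and 5526, against 3925 and 4006). There the called members Cmpk2 and Znfx1 changed direction with Brg1 siRNA, as did Mx1, Mx2, Xaf1 and Eif2ak2, which were not called. With control siRNA Isg20, Trim30a, Samd9l and Adar did, none of them called.

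Genes listed upstream of the antiviral genes did not all move with them. The 32 tested were 1 ligand, 5 receptor genes (Ifnar1 and Ifnar2 among them), 2 kinases, 8 factors, 12 sensing genes and adaptors and 4 inhibitors. Of the 32, 10 were higher and 4 lower with Brg1 siRNA in vehicle, 13 and 4 in LPS and 20 and 2 in Dex+LPS. Of all genes 9.28% and 10.6%, 17.3% and 15.7%, and 18.9% and 15.1% were. In LPS, sensing genes and adaptors made up 8 of the 13 higher calls. Ifnb1, the gene of interferon beta, had 0 normalized counts in all 6 vehicle libraries. In LPS it had 51.1, 44.9 and 42.1 with Brg1 siRNA, against 25.9, 35.9 and 21.4 with control siRNA, without overlap, and was not called (limma adjusted p = 0.288). In Dex+LPS it had 3.43, 2.23, 3.21 and 11.1, against 1.81, 2.14, 1.02 and 0, and was called (log2 fold change 1.34, limma adjusted p = 0.0237), on few reads. Of the 21 interferon genes listed, 19 were not analysed here and 1 did not pass the filter.

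Both genes of the receptor IFNAR were lower with Brg1 siRNA in all 3 treatments. Ifnar1 had 2937, 2958 and 3111 in LPS with Brg1 siRNA, against 5064, 5027 and 4965 with control siRNA, and its log2 fold change was -0.47, -0.74 and -0.68 in vehicle, LPS and Dex+LPS. For Ifnar2 it was -0.25, -0.46 and -0.35. Factors that bind ISREs or related elements went the other way or did not pass. Irf7 rose in all 3 (1.10, 0.83 and 1.63), with 9322, 9031 and 8870.0 in vehicle with Brg1 siRNA, against 4319, 5016 and 3491 with control siRNA. Irf1 rose in all 3 as well (0.43, 0.79 and 0.66).

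Stat2 rose in vehicle (0.62) and in Dex+LPS (0.75) and was not called in LPS (0.19). Irf9 rose in Dex+LPS by 0.29 and was not called in vehicle or LPS. Of the sensing genes, the LPS receptor gene Tlr4 rose in LPS (0.35) and in Dex+LPS (1.14), and the gene of the adaptor TRIF, Ticam1, in vehicle (0.53) and in LPS (0.31). Their part in the levels of the 47 genes was not tested.

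**Figure D5:**
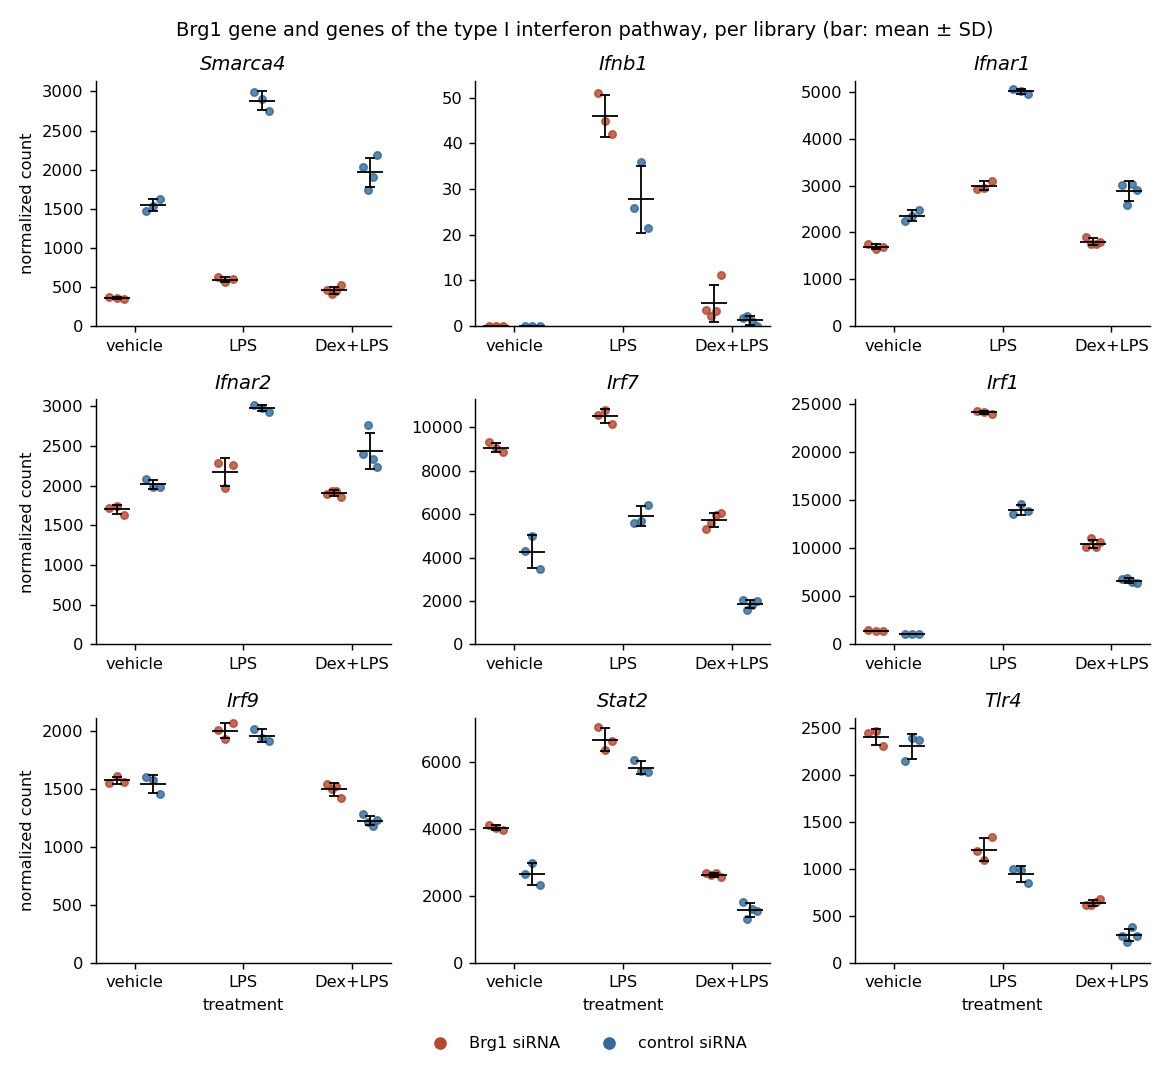
Normalized counts in each library for Smarca4 and 8 genes of the type I interferon pathway, the LPS receptor gene Tlr4 among them, by treatment, with Brg1 siRNA left of control siRNA and bars for mean ± SD (n = 3, and 4 in Dex+LPS). Smarca4, Ifnar1 and Ifnar2 lie lower with Brg1 siRNA in every treatment, and Irf7 and Irf1 higher.

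In the authors' deposited table of fold changes, the members called at an adjusted p under 0.05 were 32 higher and 0 lower for the knockdown in vehicle, 14 and 2 in LPS and 45 and 0 in Dex+LPS. For the LPS response the authors' deposited table gives 41 higher with Brg1 siRNA and 43 with control siRNA, and for the Dex response 47 lower with each. These fold changes were deposited with the counts of the same 20 libraries, so they are not separate observations. The shares of all genes called in them were not computed.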

How the data were processed

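Gene expression was measured by RNA-seq in 20 libraries of 6 groups. The authors deposited 1 table of counts normalized by size factors (a signal per gene that is not corrected for length) with log2 fold changes and adjusted p-values of 7 comparisons. The submitters' processing notes name Salmon 1.4.0, DESeq, DESeq2, R 4.1.0 and the builds mm10 and GRCm38.p6. The strand setting is not given in the sources used here. Multiplying by size factors recovered from the steps between low values gave whole reads within 0.01 for 99.95% of values.

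As planned for normalized values, limma 3.58.1 (trend, robust, R 4.3.3) was fitted to log2(value + 1) of all 6 groups for the 12061 genes with at least 10 normalized counts in at least 3 libraries. Fold changes on this scale understate those of low genes. P-values were Benjamini-Hochberg adjusted over all genes, and a call is an adjusted p under 0.05. The edgeR 4.0.16 quasi-likelihood test and DESeq2 1.42.0 on the recovered reads were alternatives. On these reads edgeR called 2477 genes for the knockdown in vehicle, 3863 for the knockdown in LPS and 4145 for the knockdown in Dex+LPS. Other alternatives were a pseudocount of 4, no filter, library totals as scaling, the replicate number as a block, the number series as a covariate or left out, only the groups compared, and each library left out in turn. The code of the test was tried on simulated data with the same spread for all genes and few genes changed. That trial held no shift in scaling and no number series, so it cannot bear on either, and its outcome is not reported here. The members and lists were chosen with earlier results of these data known. Values in every library were to be given for the member with the highest mean normalized count of each role, which is not a level per length, and for the 3 called members with the largest log2 fold change in each direction. Not all of these 3 are printed for the comparisons of Dex+LPS with vehicle, and other members shown were chosen after their values were seen. The libraries' description labels hold 2 number series, and 4 libraries carry the higher one. The recovered reads summed to 13.69 to 18.71 M per library. Values of 1 listed pathway gene are not reported here.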

Additional observations from a re-analysis of the deposited data

Results flagged for a closer look

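Of 94 groups of 4 libraries, 2 held a library far from the others by Dixon's test, a rate below the 1 in 20 that chance gives. Zbp1 stood at 1382 normalized counts in replicate 1 of control siRNA with Dex+LPS, above the other 3 libraries. Bst2 stood at 3451 in replicate 4 of Brg1 siRNA with Dex+LPS, above the other 3.

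The response to a treatment differed between the siRNAs by the interaction tested in limma. For the response to LPS, the interaction was called lower with Brg1 siRNA in 11 members. They were led by Ifit1bl1 (-1.65), Mx1 (-1.15) and Rsad2 (-1.11) on the log2 scale. For Dex+LPS against LPS, the interaction was called higher in 33 members, led by Rsad2 (1.53), Oasl1 (1.34) and Ifit2 (1.32). For Dex+LPS against vehicle, the interaction was called higher in 15 members, led by Oasl2 (0.80), Oas3 (0.73) and Ifit1 (0.73). These interactions share libraries and are not separate observations. Those of LPS and of Dex both hold the siRNA difference in LPS, with opposite signs, and all 11 members were among the 33.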

How the results depend on the processing

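Each comparison was repeated under 29 alternatives, and the cause of a change was not tested. The counts of calls that moved by more than 1.5 times were as follows. With library totals, members between the siRNAs in LPS were 7 higher and 4 lower, members lower in LPS than in vehicle were 7 with Brg1 siRNA and 5 with control siRNA, and the LPS interaction was lower in 17. With only the groups compared in the fit, all genes called between the siRNAs in vehicle were 3715, members higher in LPS 20 and all genes with a Dex interaction 291. When the 4 libraries with the higher numbers were left out, 0 members were lower in LPS, 7 had a lower LPS interaction, 18 a higher Dex interaction, and 304 genes in all had a Dex interaction. That last count was 708 with the number series as a covariate and 727 in DESeq2, against 467 as reported.

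With library totals 12 called values changed sign. With Brg1 siRNA in LPS against vehicle they were Ifit1bl1 (-0.0294), Oas1a (-0.0460), Bst2 (-0.17), Ifi204 (-0.17), Sp100 (-0.38), Uba7 (-0.37) and Znfx1 (-0.0643), and with control siRNA Ifit3 (-0.12), Rtp4 (-0.0332) and Sp100 (-0.19). In Dex+LPS against vehicle with Brg1 siRNA they were Cmpk2 (-0.00967) and Znfx1 (-0.0687).

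Leaving out single libraries gave 8 to 16 members called higher and 0 to 2 called lower between the siRNAs in LPS. The LPS interaction was called lower in 9 to 14 members and the Dex interaction higher in 25 to 35. The interaction in Dex+LPS against vehicle was called higher in 7 to 19. Members called in every alternative were 26 of 31 in vehicle, 7 of 15 in LPS and 42 of 45 in Dex+LPS.

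With the replicate number as a block, 31 members were called higher in vehicle and 45 in Dex+LPS. In LPS 12 were called higher and 3 lower, and the Dex interaction was called higher in 30. Same-numbered libraries mostly did not deviate together: 46 pairs had correlations from -0.166 to 0.406, with 2 over 0.1, and 4 of 20 libraries correlated best with their own number. The 4 libraries of the higher number series, none of them in vehicle, did deviate together. Correlations among them ran from 0.208 to 0.406, the highest between the Brg1 and control siRNA replicates 4 in Dex+LPS. What the series marks is not stated in the labels. These correlations cannot show whether a replicate number marks a shared mouse or preparation, which the labels do not state.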
